A study of Mus musculus with 39 samples.

Results

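The Pou5f1 and Sox2 loci were examined in peak lists of 4 histone marks from sorted mouse nEnd, the culture of naïve extra-embryonic endoderm. Members were the listed peaks that touched the Pou5f1 gene with 30 kb on either side, or the Sox2 gene with 150 kb on either side, on GRCm38 (mm10). Of the 432096 peaks in the 36 lists, 107 were members, 29 at Pou5f1 and 78 at Sox2. A peak is an interval in which the coverage of CUT&Tag fragments exceeded that of an IgG control.

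All cells came from a single OCT4-mCherry reporter line grown as nEnd and left untreated. The reporter follows OCT4 protein. Cells were separated by FACS on OCT4-mCherry and on PDGFRA-APC, an antibody against a surface receptor of endoderm, into Oct4+ cells, double-positive (DP) cells and Pdgfra+ cells. Each population was profiled for H3K4me1, H3K27ac, H3K27me3 and H3K9me3 in 3 libraries. The product of Pou5f1 was therefore part of the gate, and the comparison of populations at Pou5f1 is not independent of the sort. OCT4 protein was required of both Oct4+ and DP cells, while SOX2 was not used in the sort.

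Pou5f1 encodes OCT4, a POU-domain factor that binds DNA together with the HMG-box factor SOX2 at composite sites in pluripotent cells. Mouse Pou5f1 has a distal enhancer used in naïve cells and a proximal enhancer used in epiblast-derived cells, both just upstream of the gene. Sox2 has the nearby regulatory regions SRR1 and SRR2 and a distal downstream control region needed for its expression in embryonic stem cells. H3K4me1 marks primed and active enhancers and H3K27ac active enhancers and promoters. H3K27me3 is deposited by Polycomb repressive complex 2, and H3K9me3 marks heterochromatin.

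Pou5f1 lies on the plus strand at chr17:35506018-35510772, next to Tcf19 and Cchcr1 and with the antisense transcript Gm19553 over its last exons. Sox2 lies on the plus strand at chr3:34650405-34652461, inside the long non-coding gene Sox2ot. Distances are given from the annotated transcription start site (TSS) of each gene, negative upstream. Elements were set as intervals by distance. At Pou5f1 these were the promoter (-0.5 to 0.5 kb), the proximal enhancer (-1.5 to -0.5 kb), the distal enhancer (-3 to -1.5 kb) and a far upstream interval (-20 to -15 kb) with no assigned function. At Sox2 they were the promoter (-0.5 to 0.5 kb), SRR1 (-5 to -3 kb), SRR2 (3 to 5 kb) and the control region (100 to 120 kb downstream).

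Sequences are shown for windows around single maxima of signal, for SRR2, which carries the best OCT4-SOX2 site near Sox2, and for both promoters. The Pou5f1 distal enhancer window is centred on the H3K4me1 maximum of DP replicate 3. Oct4+ maxima of H3K4me1 in replicates 1 and 3 and of H3K27ac in replicate 1 lie outside it. The control region windows are centred on maxima of Oct4+ replicate 2, of H3K4me1 for the first and H3K27ac for the second. All sequences are the plus strand of GRCm38, and promoter sequences are those of RefSeq. Capitals in the Pou5f1 distal enhancer, chr17:35503798-35504097, mark a match to the OCT4-SOX2 composite motif. Capitals in SRR2, chr3:34653907-34654206, mark first a composite match and then a STAT match. Capitals in the control region, chr3:34755284-34755583 and chr3:34761448-34761747, mark the bases of maximum signal. The promoters, chr17:35505782-35506017 and chr3:34649745-34649994, stop before the transcribed sequence and hold no capitals.
Pou5f1 distal enhancer: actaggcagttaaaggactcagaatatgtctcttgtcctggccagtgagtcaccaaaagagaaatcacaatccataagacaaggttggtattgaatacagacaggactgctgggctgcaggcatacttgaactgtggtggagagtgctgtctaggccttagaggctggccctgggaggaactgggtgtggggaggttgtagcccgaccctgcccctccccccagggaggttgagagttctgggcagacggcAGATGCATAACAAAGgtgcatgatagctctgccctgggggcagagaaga
Pou5f1 promoter: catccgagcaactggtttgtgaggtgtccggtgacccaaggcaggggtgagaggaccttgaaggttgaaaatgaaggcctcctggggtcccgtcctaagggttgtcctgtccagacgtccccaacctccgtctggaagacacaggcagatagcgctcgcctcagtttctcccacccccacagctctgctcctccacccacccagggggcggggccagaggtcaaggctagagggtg
Sox2 promoter: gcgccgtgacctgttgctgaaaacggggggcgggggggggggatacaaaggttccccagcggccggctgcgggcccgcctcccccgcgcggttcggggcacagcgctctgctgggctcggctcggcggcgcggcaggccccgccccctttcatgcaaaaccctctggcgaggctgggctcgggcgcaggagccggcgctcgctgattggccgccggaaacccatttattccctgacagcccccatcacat
Sox2 SRR2: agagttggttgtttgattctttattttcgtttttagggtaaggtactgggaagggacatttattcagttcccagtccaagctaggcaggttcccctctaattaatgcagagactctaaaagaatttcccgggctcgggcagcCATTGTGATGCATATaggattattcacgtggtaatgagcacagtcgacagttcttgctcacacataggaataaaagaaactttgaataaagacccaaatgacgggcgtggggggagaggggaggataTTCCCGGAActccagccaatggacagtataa
Sox2 control region, first maximum: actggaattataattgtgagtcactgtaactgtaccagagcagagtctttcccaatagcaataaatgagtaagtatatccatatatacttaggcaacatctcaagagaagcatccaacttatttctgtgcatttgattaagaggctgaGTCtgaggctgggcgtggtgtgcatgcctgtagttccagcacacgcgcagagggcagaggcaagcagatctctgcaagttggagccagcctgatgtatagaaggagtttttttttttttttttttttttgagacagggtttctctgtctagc
Sox2 control region, second maximum: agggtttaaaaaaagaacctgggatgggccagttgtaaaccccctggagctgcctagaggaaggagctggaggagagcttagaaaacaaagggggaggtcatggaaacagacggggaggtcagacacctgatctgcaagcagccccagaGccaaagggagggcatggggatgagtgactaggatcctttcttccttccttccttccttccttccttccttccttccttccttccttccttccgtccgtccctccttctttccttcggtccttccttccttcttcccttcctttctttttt

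The composite motif was searched on both strands as the SOX letters CATTGT, then any base, then the octamer ATGCAAAT. The octamer was also searched alone, as were the STAT motif TTCCNGGAA and the GATA motif AGATAA, these without mismatches. With up to 2 mismatches the composite was present in 0.408% of 32841 RefSeq promoters, the octamer in 1.74%, STAT in 1.15% and GATA in 11.2%. Neither promoter printed above held any of these motifs. The distal enhancer of Pou5f1 had no composite match at up to 2 mismatches. It had 1 match with 3 mismatches, AGATGCATAACAAAG at -1.97 kb on the minus strand, in a search added after the sequence was seen. A composite with up to 3 mismatches was found in 2.67% of promoters. In SRR2 the composite CATTGTGATGCATAT, with 1 mismatch, lay at 3.64 kb, and TTCCCGGAA lay at 3.77 kb. No motif was found in either window of the control region. These are matches of letters and were not tested for binding.

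The lists differed in length, from 1074 to 65131 peaks, and sequencing depth is unknown. Among the H3K4me1 lists, those of Pdgfra+ replicates 1 and 2 were the shortest (1723 and 1074 peaks, against 10620 in Pdgfra+ replicate 3). The H3K27ac lists of Oct4+ replicates 1 and 2 were the longest (38619 and 65131), whereas that of Oct4+ replicate 3 held 8574, fewer than DP replicates 1 and 3. Identity was described by H3K27ac peaks within 1 kb of the TSS of marker genes, in at least 2 of 3 libraries. Of 5 epiblast markers, 4 met this in Oct4+ cells, 1 in DP cells and 1 in Pdgfra+ cells. Of 5 primitive endoderm markers, the numbers were 1, 5 and 4. These include Pdgfra, whose product was part of the gate, so that gene is not an independent check of identity. Trophectoderm markers met it for 2, 1 and 1 of 4 genes. None of 4 fibroblast markers, including Col1a1, had such a peak in any library. The share of all genes that met this rule was not computed for any population. As the lists differ in length, the marker counts are a description and not a test of identity. A window without a listed peak may still carry the mark below the calling threshold.

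At Pou5f1, H3K4me1 was listed over the upstream enhancers in all 3 Oct4+ and all 3 DP libraries and in 1 of 3 Pdgfra+ libraries. The peaks merged into 1 region, chr17:35495197-35509924, that ran from -10.8 to 3.91 kb and covered both enhancers, the promoter and part of the gene. A peak in all 3 Oct4+ and all 3 DP lists between -3 and -0.5 kb was found at 64 of 21951 protein-coding genes (0.292%). With at most 1 Pdgfra+ list this was 43 genes (0.196%), and 1.56% of genes had such a peak in all 3 DP lists. The interval was taken from Pou5f1 itself, so these shares are descriptions.

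Within these peaks, the maximum of coverage fell in the distal enhancer interval in 3 of 3 Oct4+ and 3 of 3 DP libraries. It lay at -2.07 kb in DP replicates 1 and 3 and in Oct4+ replicate 2, and at -1.98 kb in DP replicate 2. In Oct4+ replicates 1 and 3 it lay near -1.85 and -2.27 kb. In Pdgfra+ replicate 3 the peak ran from -2.73 to 3.91 kb, and its maximum was not in the enhancers but at 0.884 to 1.02 kb, within the first intron of the main transcript. The composite match shown in capitals above lies at -1.97 kb. The window searched, -2.22 to -1.92 kb, was centred on 1 of these maxima and lay inside the span of the Oct4+ and DP maxima. Any match in it would have fallen there, so its position is not a result. No maximum of either mark fell in the proximal enhancer or promoter intervals of Pou5f1.

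The enhancer peak was ranked by total signal within its own list, a measure that moves with the length of the list. For H3K4me1 in DP cells it was in the top 1.76%, 5.02% and 1.42% of the list (replicates 1 to 3). In Oct4+ cells it was in the top 7.90%, 3.13% and 17.04%, and in Pdgfra+ replicate 3 in the top 6.63%. As positions in the list these were 77, 596 and 161 in DP, 326, 503 and 1268 in Oct4+ and 704 in Pdgfra+ cells. DP and Oct4+ ranks overlapped on both scales.

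H3K27ac gave another distribution. It was listed over the Pou5f1 enhancers and promoter in all 3 Oct4+ libraries, in 1 of 3 DP libraries (replicate 1) and in 1 of 3 Pdgfra+ libraries (replicate 3). The merged region, chr17:35498824-35510129, ran from -7.19 to 4.11 kb. Over all protein-coding genes, 12.5% had an H3K27ac peak between -3 and -0.5 kb in all 3 Oct4+ lists, and 1.27% had this with at most 1 DP and at most 1 Pdgfra+ list. The Oct4+ peaks ranked in the top 0.347%, 0.272% and 1.52% of their lists. The DP replicate 1 peak ranked in the top 7.37% and the Pdgfra+ replicate 3 peak in the top 39.2%. Each Oct4+ peak thus ranked above both, as it did by position (134, 177 and 130 against 808 and 1905). Total signals, not corrected for depth, did not keep this order, with 59678, 57049 and 26068 in Oct4+ against 51464 and 43055. The maxima were 28, 18 and 12 against 20 and 23. The weakest peak listed in Pdgfra+ replicate 3 had a total of 28044, above that of the Oct4+ replicate 3 peak. In sorted bulk cells, a mark carried by fewer cells and a weaker mark in each cell cannot be told apart.

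The position of the maximum also separated the libraries. In the 3 Oct4+ libraries H3K27ac was highest in the distal enhancer, from -2.27 to -2.26 kb, at -1.94 to -1.89 kb and at -2.07 kb. In DP replicate 1 and Pdgfra+ replicate 3 it was highest at 0.667 to 0.934 kb and at 0.672 kb, in the first intron. The H3K27ac maximum of Oct4+ replicate 3 and the H3K4me1 maxima of Oct4+ replicate 2 and DP replicates 1 and 3 began at the same base, -2.072 kb. Among the DP libraries numbered 1, that of H3K4me1 was highest at the distal enhancer and that of H3K27ac in the intron. These are separate libraries, and the labels do not say that they came from the same cells.

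**Figure D1:**
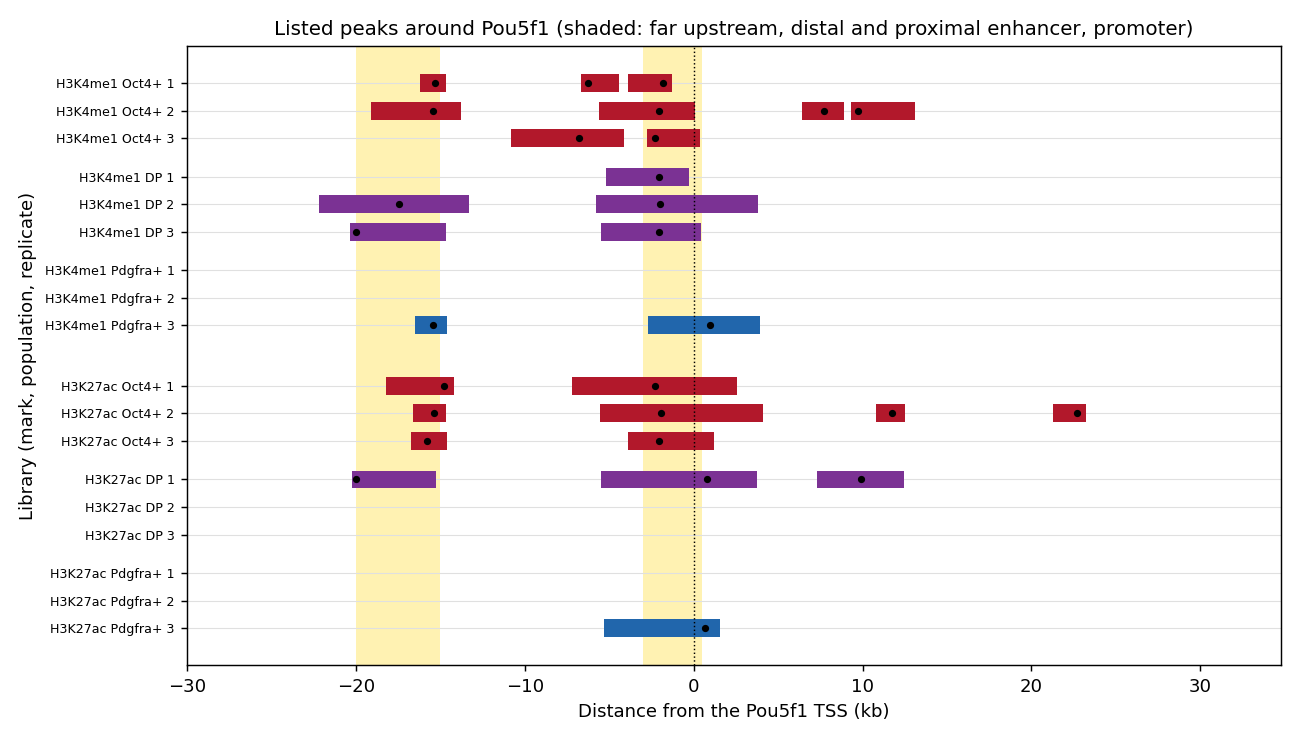
Listed H3K4me1 and H3K27ac peaks around Pou5f1. The horizontal axis is the distance from the TSS in kb, each line is 1 of 18 libraries, bars are peaks, black dots are the midpoints of the interval of maximum signal, and shading marks the elements. H3K4me1 bars cross the enhancers in all Oct4+ and DP libraries, whereas H3K27ac bars are present there in 3 Oct4+, 1 DP and 1 Pdgfra+ library.

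The far upstream interval of Pou5f1 also carried both marks. H3K27ac was listed there in 3 of 3 Oct4+, 1 of 3 DP and 0 of 3 Pdgfra+ libraries, in a region at chr17:35485797-35491826 (-20.2 to -14.2 kb). H3K4me1 was listed in 2 Oct4+, 2 DP and 1 Pdgfra+ library. The Oct4+ H3K27ac peaks ranked in the top 15.1%, 38.4% and 58.3% of their lists, and the DP peak in the top 61.4%. With equal numbers of peaks per list, no library of any population kept an H3K27ac peak there. For H3K4me1, 0 Oct4+, 1 DP and 0 Pdgfra+ libraries kept one. The share of all genes with such a pattern was not computed, so these counts are descriptions. Downstream, between 6.42 and 13.1 kb over Tcf19 and the start of Cchcr1, peaks of either mark were listed in Oct4+ replicate 2 and DP replicate 1 alone.

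The share of the whole Pou5f1 window under H3K4me1 peaks was 10.03%, 26.8% and 15.3% in Oct4+ replicates 1 to 3. It was 7.64%, 28.5% and 18.03% in DP cells and 0, 0 and 13.2% in Pdgfra+ cells. Oct4+ and DP ranges overlapped almost wholly, with means of 17.4% ± 8.58 and 18.1% ± 10.4 (SD, n = 3), and the Pdgfra+ mean was 4.41% ± 7.64. An exact permutation test over all assignments of the 9 libraries to 3 populations gave p = 0.193, and 0.744 after Benjamini-Hochberg adjustment over 14282 genes. Without the 2 short Pdgfra+ lists, an alternative chosen after seeing the data, the difference between Oct4+ and Pdgfra+ cells was 4.16 percentage points in place of 13.0. It was 4.34 with equal numbers of peaks per list, 7.37 with a common threshold of total signal and 8.26 without Oct4+ replicate 2.

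For H3K27ac the covered share at Pou5f1 was 21.3%, 23.7% and 11.1% in Oct4+ cells. In DP cells it was 29.9%, 0 and 0, and in Pdgfra+ cells 0, 0 and 10.6%. Every Oct4+ library was above every Pdgfra+ library, narrowly so for Oct4+ replicate 3 against Pdgfra+ replicate 3, and 17.4% of the 19356 genes tested had this order. DP replicate 1 was above all Oct4+ libraries and the other DP libraries below them. The means were 18.7% ± 6.69, 9.95% ± 17.2 and 3.54% ± 6.14 (SD, n = 3), and the exact permutation p was 0.271, adjusted 0.550. The difference between Oct4+ and Pdgfra+ means, 15.2 percentage points, was 9.08 with equal numbers of peaks and 6.45 with a common threshold.

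The repressive marks were nearly absent from the lists in the Pou5f1 window. H3K9me3 had no listed peak there in any of 9 libraries, as for 31.5% of protein-coding genes. H3K27me3 had 1 peak, in Oct4+ replicate 3, which reached 0.778% of the window from its outer edge. That peak belonged to a region at chr17:35466532-35476521, -39.5 to -29.5 kb from the TSS, with peaks in 3 Oct4+, 3 DP and 0 Pdgfra+ lists. A peak in at most 1 list was found at 58.4% of genes for H3K27me3 in windows of this kind. In the Pdgfra+ libraries numbered 1 and 2, which are separate for each of the 4 marks, no peak was listed in the Pou5f1 window.

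At Sox2, H3K27ac was found in Oct4+ cells and in no DP or Pdgfra+ list. All 28 H3K27ac peaks of the window came from the 3 Oct4+ libraries. They covered 11.7%, 15.3% and 5.22% of it, against 0 in each of the 6 other libraries. A peak in all 3 Oct4+ lists and in none of the 6 others, in the gene with 150 kb flanks, was found at 848 genes (3.86%). The exact permutation p was 0.0357, adjusted 0.347 over 20996 genes, with means of 10.7% ± 5.10, 0 and 0 (n = 3). Every Oct4+ library above every other library was the order at 10.1% of genes. The Oct4+ mean was 3.46% with equal numbers of peaks and 3.06% with a common threshold of total signal. Both settings only remove peaks, so the other populations, which had none, could not leave 0.

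**Figure D2:**
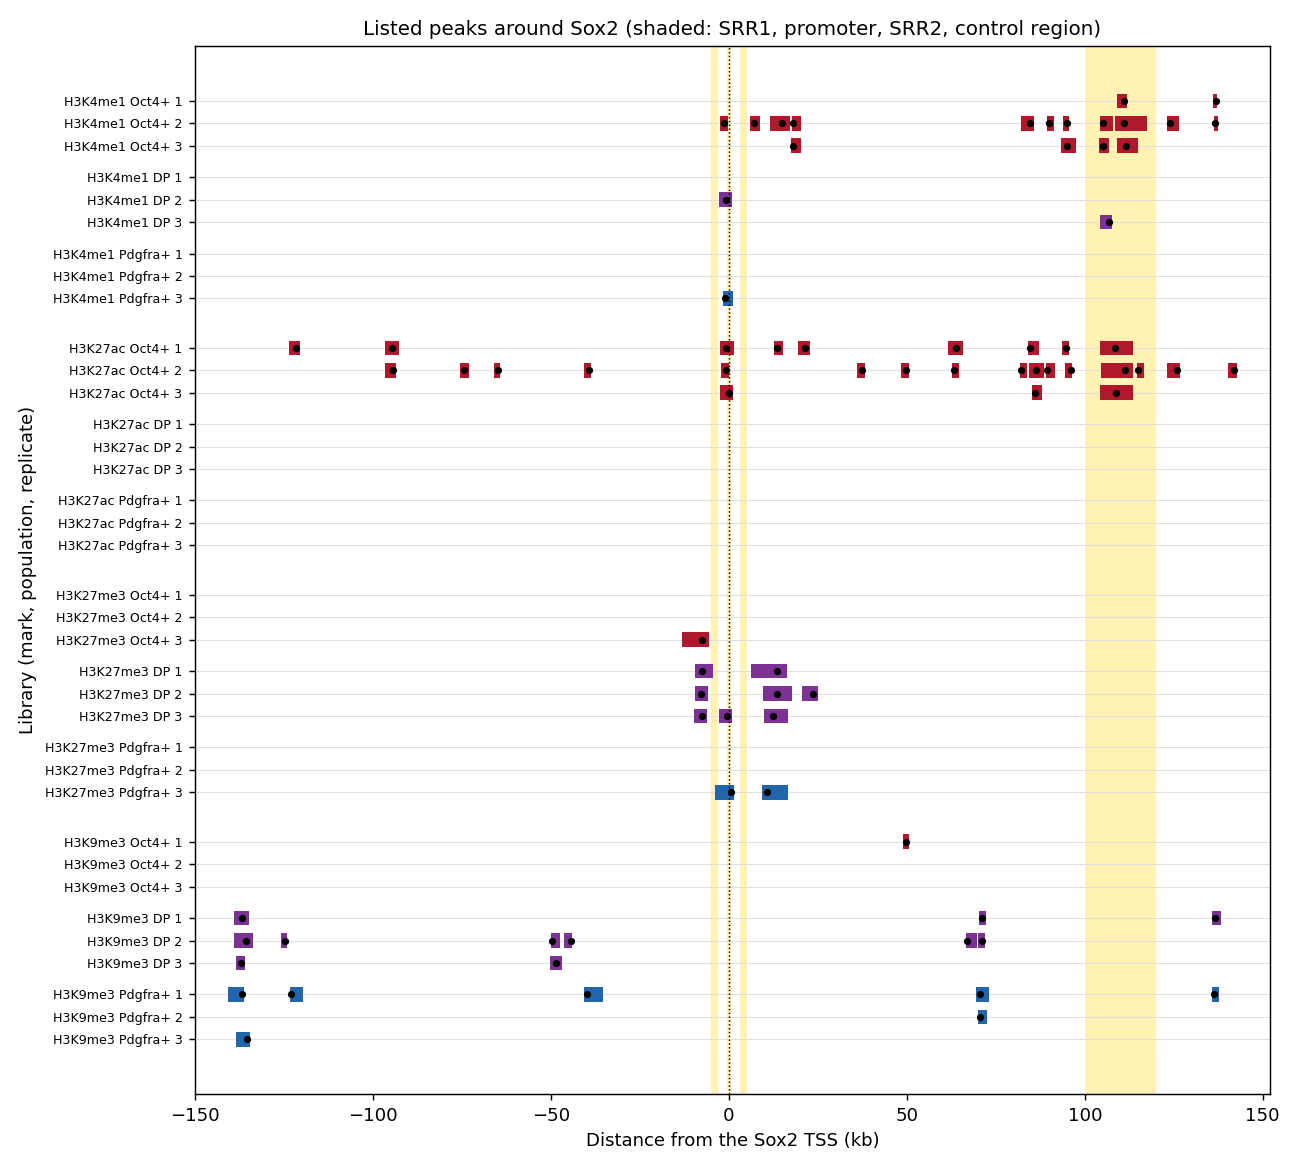
Listed peaks of the 4 marks around Sox2. The horizontal axis is the distance from the TSS in kb, each line is 1 of 36 libraries, bars are peaks, black dots are the midpoints of the maximum-signal interval, and shading marks the elements. H3K27ac bars are in Oct4+ libraries alone, while H3K27me3 bars flank the gene in the 3 DP libraries.

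A trio of H3K27ac regions held a peak in each Oct4+ library. The one at the Sox2 promoter, chr3:34647955-34651929, ran from -2.45 to 1.52 kb, another at chr3:34734508-34738988 from 84.1 to 88.6 kb, and that of the control region at chr3:34754621-34764069 from 104.2 to 113.7 kb. The control region peaks were 9081 to 9351 bp wide and nearly coincident. They ranked in the top 0.419%, 0.312% and 0.245% of their lists, and 21st in the list of Oct4+ replicate 3. The promoter peaks ranked lower, in the top 8.39%, 19.4% and 10.7%. The control region peak had the higher total signal in each of the 3 Oct4+ libraries, 55762, 55210 and 41922 against 19132, 11596 and 14712 at the promoter. A total is summed over bases, and the promoter peaks were narrower, at 3975, 2188 and 3661 bp. The maxima differed less, with 14, 15 and 11 in the control region and 12, 13 and 8 at the promoter.

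These totals can be set beside the weakest peak that the other lists hold, although none is corrected for depth. The lowest total signal listed for H3K27ac was 13683, 13728 and 14586 in the DP lists and 27115, 8736 and 28044 in the Pdgfra+ lists. Each of the Oct4+ control region totals was above all 6, whereas the promoter totals lay within their range. With the lists limited to equal numbers of peaks (3079 for H3K27ac), the control region kept a peak in 3 Oct4+ libraries. The DP and Pdgfra+ lists held none there before the limit, so their 0 was fixed in advance. The promoter kept one in 1 Oct4+ library.

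H3K4me1 in the control region followed the Oct4+ libraries too, with a peak in 3 of 3 Oct4+, 1 of 3 DP and 0 of 3 Pdgfra+ libraries. The region with a peak in each Oct4+ library, chr3:34758851-34767785, ran from 108 to 117 kb and held no DP or Pdgfra+ peak. The single DP peak, in replicate 3, ran from 104.2 to 107.7 kb and ranked in the top 46.1% of its list. The Oct4+ peaks ranked in the top 55.5%, 4.22% and 5.91%, so that of replicate 1 was weak in its list. With lists limited to 1074 peaks, the control region kept an H3K4me1 peak in 2 Oct4+ libraries and in 0 DP libraries. Maxima of H3K4me1 in Oct4+ replicates 2 and 3 both lay at 105.03 kb. Further maxima lay at 111.07 kb in Oct4+ replicate 1 and 110.93 kb in replicate 2, and H3K27ac of replicate 2 was highest at 111.19 kb. The window printed above as first maximum is centred on the H3K4me1 maximum of replicate 2 at 105.03 kb. The second is centred on the H3K27ac maximum at 111.19 kb, and the H3K4me1 maximum at 110.93 kb lies outside it.

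**Figure D3:**
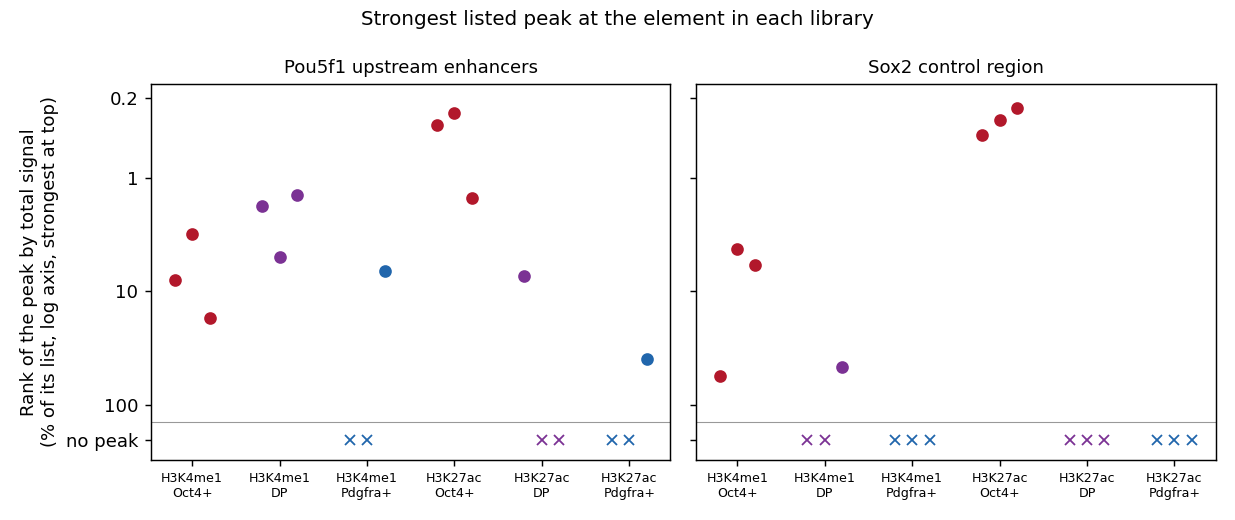
Rank of the strongest listed peak over the Pou5f1 proximal and distal enhancers and over the Sox2 control region in 18 libraries. The vertical axis is the rank by total signal as a percentage of the library's own list, on a log axis with the strongest at the top, and crosses mark libraries with no peak. DP libraries have ranked H3K4me1 peaks at Pou5f1 in all 3 replicates, and at Sox2 in 1.

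Over the whole Sox2 window, H3K4me1 peaks covered 1.33%, 12.7% and 5.26% in Oct4+ libraries. They covered 0, 1.20% and 1.16% in DP and 0, 0 and 0.928% in Pdgfra+ libraries. Every Oct4+ library was above every other library, by little in replicate 1, an order seen at 2.94% of 18208 genes. The means were 6.42% ± 5.75, 0.786% ± 0.681 and 0.309% ± 0.536 (SD, n = 3). The exact permutation p was 0.0179, and 0.772 after adjustment. The difference between Oct4+ and Pdgfra+ means, 6.11 percentage points, was 2.99 without Oct4+ replicate 2, 2.98 with a common threshold and 1.65 with equal numbers of peaks.

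Of the elements next to Sox2, the promoter carried H3K27ac in all 3 Oct4+ libraries, as described above. At the promoter, H3K4me1 was listed in 1 library of each population. SRR1 and SRR2 had no H3K4me1 or H3K27ac peak in any of 18 libraries. The SRR2 composite, CATTGTGATGCATAT, was thus outside all listed peaks of the 4 marks. Of 5 composite matches with up to 2 mismatches in the Sox2 window, 1 lay under peaks, at 84.1 kb, in 1 H3K27ac and 1 H3K4me1 list. The single match in the Pou5f1 window, at 33.6 kb, lay under none.

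H3K27me3 at Sox2 was listed in all 3 DP libraries. Of its 11 peaks, 8 were in DP, 2 in Pdgfra+ and 1 in Oct4+ lists. It covered 5.06%, 5.41% and 4.65% of the window in DP cells, 0, 0 and 2.51% in Oct4+ cells and 0, 0 and 4.27% in Pdgfra+ cells. Each DP library was above all 6 others, an order found at 7.16% of 15911 genes. Means were 5.04% ± 0.377 in DP, 0.838% ± 1.45 in Oct4+ and 1.42% ± 2.46 in Pdgfra+ cells (SD, n = 3), and the exact permutation p was 0.0786, adjusted 0.615. The Oct4+ and Pdgfra+ peaks came from the replicate with the longest list of each population (replicate 3, 5785 and 6151 peaks). The shortest DP list, with 3798 peaks, was shorter than these. With each list limited to its 1143 strongest peaks, no H3K27me3 peak was left at Sox2 in any population, and the DP cover of 5.04% became 0. With a common threshold of total signal the means were 2.59% in DP, 0.838% in Oct4+ and 0 in Pdgfra+ cells.

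A pair of H3K27me3 regions held a peak in each DP library, and they lay on either side of the gene. The upstream one, chr3:34637104-34645890, ran from -13.3 to -4.51 kb and held peaks in 3 DP, 1 Oct4+ and 0 Pdgfra+ lists. Its maximum was at -7.68 kb in DP replicates 1 and 3 and in Oct4+ replicate 3. The downstream one, chr3:34656536-34668139, ran from 6.13 to 17.7 kb and held peaks in 3 DP, 0 Oct4+ and 1 Pdgfra+ list. The promoter itself was under H3K27me3 in DP replicate 3 and Pdgfra+ replicate 3. A peak in all 3 DP lists, with at most 1 list of each other population, was found at 6% of genes in windows of this size, and all 3 DP lists had one at 50.2%.

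H3K9me3 was listed far from the gene. It covered 0.570%, 0 and 0 of the Sox2 window in Oct4+ libraries, 2.87%, 5.60% and 1.98% in DP and 6.40%, 0.823% and 1.28% in Pdgfra+ libraries. All 6 DP and Pdgfra+ libraries were above all 3 Oct4+ libraries, an order seen at 3.91% of 20838 genes. All 3 DP and all 3 Pdgfra+ lists held an H3K9me3 peak in the window, as they did at 38% of genes. Means were 0.190% ± 0.329 in Oct4+, 3.48% ± 1.89 in DP and 2.84% ± 3.10 in Pdgfra+ cells (SD, n = 3), and the exact permutation p was 0.20, adjusted 0.695. The region with a peak in each DP library, chr3:34509643-34516610, lay -141 to -134 kb from the TSS, within Sox2ot, and had peaks in 2 Pdgfra+ and 0 Oct4+ lists. Another, 66.6 to 73.0 kb downstream, had peaks in 2 DP, 2 Pdgfra+ and 0 Oct4+ lists. The H3K9me3 peak nearest to the Sox2 TSS, in Pdgfra+ replicate 1, ended at -35.4 kb.

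**Figure D4:**
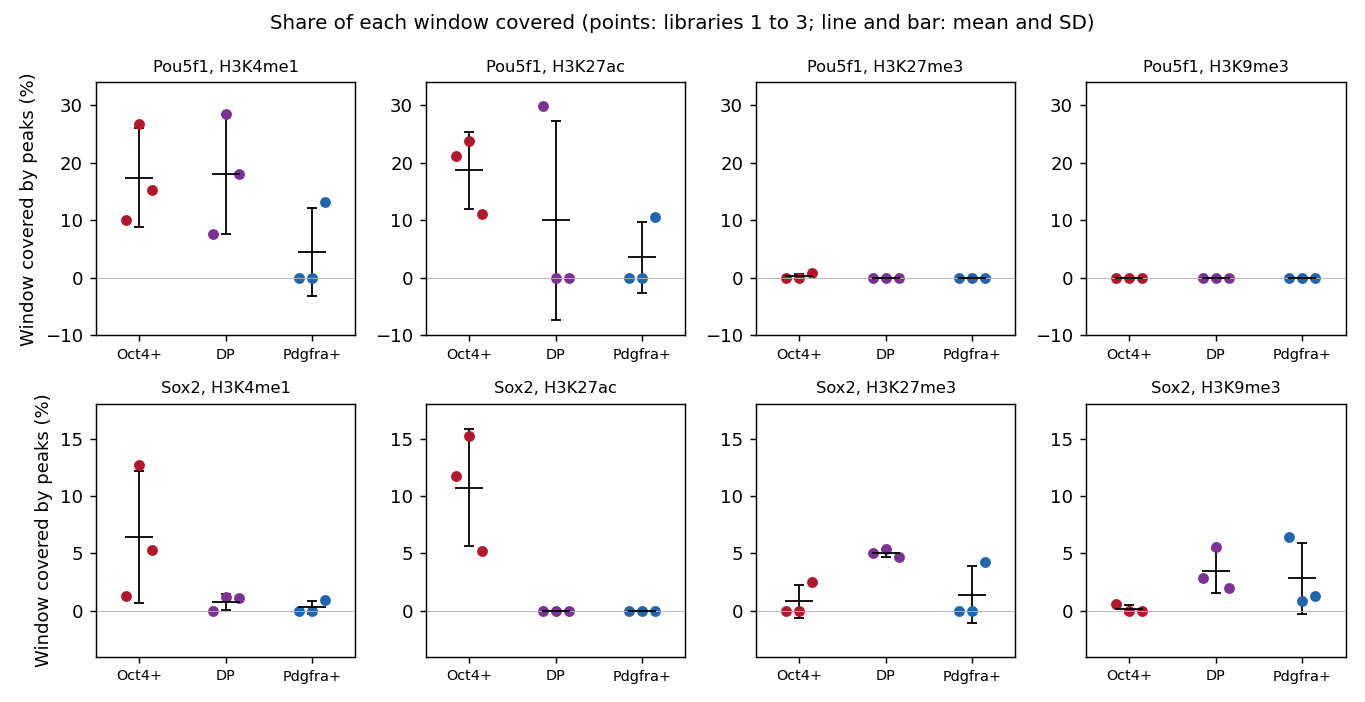
Share of each window covered by listed peaks, in percent, for Pou5f1 (upper row) and Sox2 (lower row) and the 4 marks. Points are libraries in the order of replicates 1 to 3, and the line and bar are mean and SD (n = 3). DP points reach those of Oct4+ cells for H3K4me1 at Pou5f1, and lie at 0 for H3K27ac at Sox2.

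None of the comparisons of covered share passed an adjusted p of 0.05, nor did any gene for any mark in either window size (0%). H3K9me3 at Pou5f1, with no cover in any list, could not be tested. With 3 libraries a population, the smallest p that the exact permutation test allows is 0.00357. An adjusted p under 0.05 would need many genes at or near that value, so a failure to pass does not show that populations are alike. Unadjusted p was under 0.05 for 5.96% (H3K4me1), 9.17% (H3K27ac), 7.3% (H3K27me3) and 12.7% (H3K9me3) of genes with 30 kb flanks. With 150 kb flanks the shares were 4.6%, 11.2%, 6.84% and 10%. The p-values measure the spread between these libraries.

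Other pluripotency genes were read in the same way with 30 kb flanks. Of 16 genes, which include the transcription factors Nanog, Esrrb and Klf5, 9 had more H3K27ac cover in every Oct4+ than in every Pdgfra+ library, and 7 had this for H3K4me1. Among all genes tested the shares were 17.4% and 10.9%. The reverse order was seen at Klf4 for H3K4me1, with a difference of -4.47 percentage points (0.665% of all genes had this order). For H3K27ac none of the 16 had the reverse order, but Oct4+ means were lower than Pdgfra+ means at Klf4 and Lin28a (-3.69 and -3.32). The median difference between Oct4+ and Pdgfra+ means was 15.7 percentage points for H3K27ac (all genes 4.43) and 9.12 for H3K4me1 (all genes 1.11). At Pou5f1 these differences were 15.2 and 13.0. Nanog, with mean H3K4me1 cover of 24.0% in Oct4+, 14.7% in DP and 4.88% in Pdgfra+ cells, had H3K27ac cover of 26.8%, 7.05% and 6.13%. Of 12 endoderm genes, 5 had the reverse order for H3K27ac, which 122 of all 19356 genes had (0.63%), and none the order of the pluripotency genes. Pdgfra, whose product was part of the gate, was among these 5. None of these genes passed the adjusted threshold.

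The genes whose cover was most like that of Pou5f1 over the 18 H3K4me1 and H3K27ac libraries were Ptma, Klf5, Fbp1, Sde2 and Vps28. Spearman's rho ran from 0.906 to 0.928, over 19500 genes compared. For Sox2 they were Foxp1, Psg17, Pon3, Erich1 and Fam49a, with rho from 0.968 to 0.986 over 21027 genes. These points share libraries and list lengths, and for Sox2 many of the 18 values are 0. They are given as a description.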

How the data were processed

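The authors performed CUT&Tag, which tags DNA next to antibody-bound histone marks with a transposase, on sorted nEnd cells. The deposited files are 36 peak lists, 1 per library. The authors computed fragment coverage with BEDtools and called peaks against IgG with SEACR in stringent mode. The deposited signal is coverage, given for every peak as a total over its bases and as a maximum with the position of that maximum. All values were whole numbers. How SEACR scaled the IgG track is not given in the sources used here. Per the labels, the submitters' processing notes name bcl2fastq 2.19.1, Bowtie2, SAMtools 1.12, deepTools, SEACR, bedtools 2.26.0 and the build mm10. The 3 IgG samples were not analysed here. Read depth is unknown, so no interval or floor for counting error is given. The number of peaks per list stands in its place.

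Genes were those of GENCODE on GRCm38. For each library, the percentage of a gene's window covered by listed peaks was computed for all 21951 protein-coding genes, with flanks of 30 or 150 kb. The populations were tested by exact permutation, with the F statistic recomputed over all 1680 assignments of libraries to populations, and p-values were adjusted by the Benjamini-Hochberg method over genes with any cover. The test was checked on simulated data. These held no uncovered windows and no differences in list length, both of which the real lists have, so the check does not cover them. Elements and motif matches were counted without a test. Regions were peaks merged over the 9 lists of a mark, and those with a peak in all 3 libraries of a population were named. The Pou5f1 and Sox2 windows, elements and gene lists were chosen with earlier results of these data known. The study describes its samples as replicates, but the labels do not say that they were separate cultures, and p-values measure the spread between libraries, which may be technical. Alternatives were equal numbers of peaks, a common threshold of total signal, the peaks above each list's median total signal, and flanks of 15 and 75 kb. Others were the number of peaks or the share of total signal in place of covered share, no filter on genes, each library left out and a replicate block. Python 3.11.15, NumPy 2.4.6, pandas 2.3.3, SciPy 1.17.1 and Matplotlib 3.10.9 were used.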

Additional observations from a re-analysis of the deposited data

How the results depend on the processing

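Of the alternatives to the 8 covered shares and to the count of libraries with a peak at each element, 116 kept the direction and the side of the threshold, which no comparison passed. As no gene passed it for any mark in the main test, keeping the side of the threshold says little. A further 17 concern H3K9me3 at Pou5f1, which had no cover in any list and so no direction. The difference in H3K27me3 cover at Sox2 between Oct4+ and Pdgfra+ cells, -0.584 percentage points, became 0.838 with a common threshold of total signal, with the peaks above each list's median and without Pdgfra+ replicate 3, the library that held all the Pdgfra+ cover. With equal numbers of peaks it became 0. The H3K27me3 difference at Pou5f1, 0.259, became 0 with flanks of 15 kb, and ran from 0 to 0.389 with each library left out. With each library left out in turn the Sox2 difference ran from -1.42 to 0.838. The number of libraries with a peak, summed over elements, was 61. It was 24 when the interval of maximum signal had to lie in the element and 39 with equal numbers of peaks, both of which are stricter by construction. At the distal enhancer the first rule left H3K4me1 in 3 Oct4+, 3 DP and 0 Pdgfra+ libraries and H3K27ac in 3, 0 and 0. For the share of total signal in place of covered share, the exact permutation p at Pou5f1 was 0.0321 for H3K4me1 and 0.314 for H3K27ac. At Sox2 it was 0.025, 0.0357, 0.0357 and 0.0143 for H3K4me1, H3K27ac, H3K27me3 and H3K9me3. None passed after adjustment, where the lowest value was 0.111, for H3K9me3 at Sox2. With a replicate block the exact permutation p at Pou5f1 was 0.0833 for H3K4me1, 0.389 for H3K27ac and 1 for H3K27me3, and at Sox2 0.0556, 0.111, 0.111 and 0.25 for H3K4me1, H3K27ac, H3K27me3 and H3K9me3. The smallest p the block allows is 0.0278. An adjusted p under 0.05 would need a large share of all genes at that value, so the unchanged calls carry little information. Same-numbered libraries had deviations correlated above 0.1 in 5 of 9 pairs for H3K4me1, 1 of 9 for H3K27ac, 3 of 9 for H3K27me3 and 1 of 9 for H3K9me3, so the numbers were not taken as pairs. For H3K27me3, however, all 3 Oct4+ and Pdgfra+ pairs were above it (0.543, 0.106 and 0.518), and for H3K4me1 all 3 pairs of replicate 1 (0.459, 0.329 and 0.460). A shared source of same-numbered libraries was not tested further. List length and unknown depth limit any reading of a missing peak.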

Other observations

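The extra Oct4+ H3K27ac peaks around Sox2 were mostly private to 1 library. Of the 19 merged H3K27ac regions in the Sox2 window, 3 held a peak in all 3 Oct4+ libraries and 13 in a single library. Oct4+ replicate 2, whose list of 65131 peaks was the longest of all, held 16 of the 28 peaks.

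Gm3143, a long intergenic RNA gene downstream of Sox2, lies between 49.2 and 66.3 kb. H3K27ac peaks overlapped it at 48.5 to 50.5 kb in Oct4+ replicate 2 and within 61.6 to 65.7 kb in Oct4+ replicates 1 and 2. The single Oct4+ H3K9me3 peak of the window, in replicate 1, ran from 49.0 to 50.7 kb over the first of these positions.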
